A study of Mus musculus with 11 samples.

Results

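The Fam19a genes (Fam19a1 to Fam19a5, called Tafa1 to Tafa5 in current nomenclature) encode a family of small secreted proteins, and their transcripts were read in nuclei of the mouse trigeminal ganglion, which holds the somatosensory neurons of the face. The 5 genes were taken by symbol from every count table, and all 5 were listed in each of the 8 tables, among 24243 genes listed in any. They were followed in 40359 nuclei by library, by neuron class and by injury state. Nuclei came from mice over 6 weeks old, both sexes pooled, and were enriched with an antibody to the neuronal protein NeuN. Wildtype C57BL mice without injury gave 1 10x library and 4 Drop-seq libraries, the latter in 1 table without a label for the library of a nucleus. C57BL mice with spared nerve injury, a transection of the infraorbital branch on 1 side (IOT), gave 1 10x library each at 2, 7, 21 and 75 days, from the ganglion on the cut side. C57BL mice with small cuts in the skin of cheeks and forehead (facial injury) gave 1 10x library, which the paper dates to 2 days after the cuts. The last 10x library came from mice of a FVBN/C57BL/129 mix that scratched themselves chronically until the facial skin was broken (scratch lesions). Those mice were heterozygous for both Fos-tTA, which drives the transactivator from the Fos promoter, and a tetO-mCherry-2A-Gnaq transgene. The Gnaq part is a mutant that encodes a constitutively active Gq alpha, and mCherry was not seen in the somatosensory neurons. Every library pooled several animals, so the libraries differ by injury, strain, pool and preparation at once, and their totals were described and not tested against each other.

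FAM19A proteins resemble chemokines in their cysteine pattern and are made mostly by neurons. Several of them bind neurexins, the presynaptic adhesion proteins, inside the secretory pathway, and a few receptors have been reported for single members. In sensory ganglia TAFA4, the product of Fam19a4, is best known from C-fiber low-threshold mechanoreceptors, the unmyelinated afferents of light touch, where it has been tied to mechanical pain hypersensitivity. In GENCODE vM21, which uses the mm10 build, Fam19a1 lies at chr6:96113154-96657198 on the plus strand and Fam19a4 at chr6:96831203-97060413 on the minus strand, with a gap of 174.0 kb and 0 protein-coding genes between them. Fam19a2 lies at chr10:123263996-123741204 (plus), Fam19a3 at chr3:104767406-104781840 (minus) and Fam19a5 at chr15:87544299-87759364 (plus). Exons make up 0.775% of the 544.0 kb of Fam19a1, 0.983% of the 477.2 kb of Fam19a2, 2.48% of the 229.2 kb of Fam19a4, 1.35% of the 215.1 kb of Fam19a5 and 31.1% of the 14.4 kb of Fam19a3. Intronic reads were counted, so a count of the first 2 genes draws on very long introns, and values per 1000000 UMIs (CPM) are compared below between samples for 1 gene and never between genes.

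The promoters of the neighbours Fam19a1 and Fam19a4 are shown because both genes had lower levels in injured nuclei after IOT (below). That state was defined here by the UMIs of Atf3 and Sema6a together. Atf3 encodes a factor of the ATF/CREB family that can pair with AP-1 proteins. RefSeq (GRCm38.p6) gave a promoter, 250 bases before to 50 after the start, for all 5 genes, and 2 for Fam19a5. Capitals mark a match to TGANTCA, a loose form of the AP-1 motif that takes any base at N.
Fam19a1 (Tafa1), chr6:96112904-96113203, plus strand: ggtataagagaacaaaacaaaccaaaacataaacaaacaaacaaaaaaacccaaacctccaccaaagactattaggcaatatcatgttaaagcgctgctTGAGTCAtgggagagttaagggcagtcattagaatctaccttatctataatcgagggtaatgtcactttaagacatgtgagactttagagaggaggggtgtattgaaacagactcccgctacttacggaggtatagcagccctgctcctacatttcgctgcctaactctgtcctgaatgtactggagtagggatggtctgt
Fam19a4 (Tafa4), chr6:97060362-97060661, minus strand: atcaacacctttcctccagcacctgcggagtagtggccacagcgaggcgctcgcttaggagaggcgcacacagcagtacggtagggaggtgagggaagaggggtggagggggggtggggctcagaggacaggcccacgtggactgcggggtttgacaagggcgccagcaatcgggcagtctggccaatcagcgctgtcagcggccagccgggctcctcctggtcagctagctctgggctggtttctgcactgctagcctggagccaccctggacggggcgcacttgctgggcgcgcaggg
Both strands are read at once, since TGANTCA and the CRE motif TGACGTCA are each their own reverse complement. The Fam19a1 promoter held TGAGTCA, 151 bases before the start, and the second Fam19a5 promoter held TGATTCA, 190 bases before its start. No other promoter of the family held either motif, and of all 32851 RefSeq promoters of that length 7.81% held TGANTCA and 1.79% TGACGTCA. A match is a description of the letters and no sign of binding. The GC content was 42.0% for Fam19a1 and 66.7% for Fam19a4, against a median of 52.7% over all promoters.

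Tables held 3178 to 8660 nuclei with median depths of 1747 to 4178.5 UMIs (unique molecular identifiers, 1 per captured RNA molecule). The 10x libraries shared 16 to 92 cell barcodes by pair, and none with Drop-seq. Nuclei were put in 8 neuron classes by the score of 7 or 8 marker genes each, none of them a Fam19a gene: C1/2 (cold-sensing), C3 (low-threshold C fibers), C7-10 (peptidergic), C11 and C12 (itch), C13 (non-peptidergic), C5 (mechanoreceptors) and other large neurons. The same scoring set aside nuclei with satellite glia or Schwann cell markers. Another 16 marker genes kept out of the scores were 2.15 to 18.8-fold higher in their own class in the 10x libraries. Between 33.6% and 42.4% of nuclei scored for no class. Classes were compared in nuclei with 0 UMIs of Atf3 and Sema6a, both induced in injured neurons, and nuclei with at least 3 UMIs of these genes together were taken as the injury state.

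The family as a whole was widely detected. At least 1 UMI of any member was found in 74.5% of nuclei of the 10x control, 48.2% of the Drop-seq control, 76.6% at 2, 52.7% at 7, 71.4% at 21 and 86.0% at 75 days after IOT, 64.4% after facial injury and 65.7% with scratch lesions. Among the 10x libraries these shares had the same order as the median depths, with 75 days the deepest (4178.5 UMIs) and 7 days the shallowest (1747 UMIs). Thinned to 1104 UMIs per nucleus, Fam19a1 was found in 19.4% to 34.9% of nuclei of the 7 10x libraries (unthinned 24.9% to 62.6%) and Fam19a4 in 3.99% to 6.80% (unthinned 6.50% to 18.2%).

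Over all nuclei, Fam19a1 had 834 CPM in the 10x control, 937 at 2 days, 401 at 7 days, 944 at 21 days and 970.3 at 75 days after IOT, 701 after facial injury and 808 with scratch lesions. Fam19a2 had 499.8, 544, 296, 543, 442, 354 and 362 CPM in the same order. For both genes the library at 7 days was lowest. The levels of Fam19a4 ran from 45.0 CPM (21 days) to 68.1 CPM (scratch lesions), a ratio of 1.51, and those of Fam19a5 from 25.5 CPM (21 days) to 35.0 CPM (75 days), a ratio of 1.37. The corresponding ratio of highest to lowest library was 2.42 for Fam19a1 and 1.84 for Fam19a2. With 1 library per condition, these ratios have no replicate check, and the low values at 7 days came with the shallowest 10x library. The part of depth in them was not tested.

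**Figure D1:**
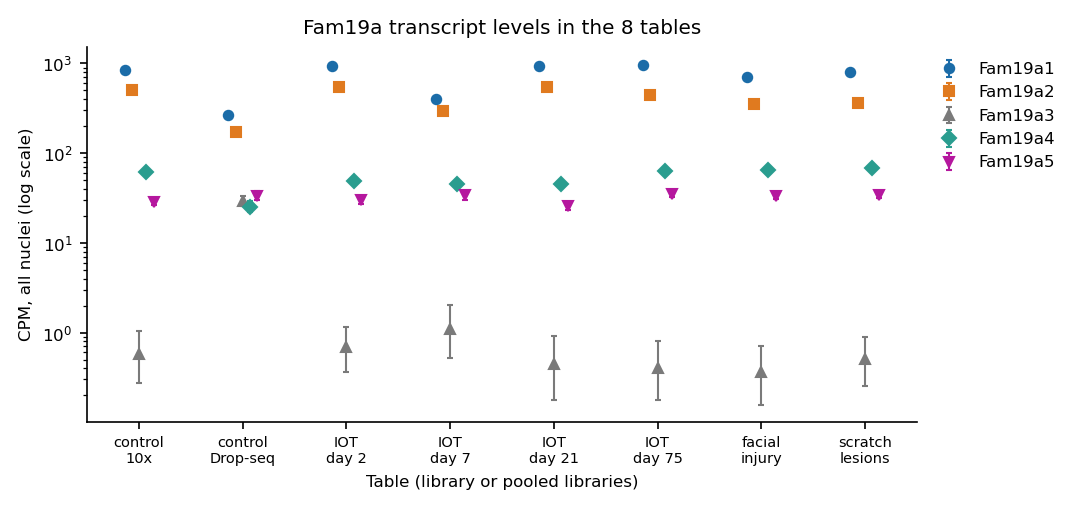
Level of each member in all nuclei of each table, in CPM on a log axis, with exact Poisson 95% intervals that cover counting error only. Fam19a3 lies between 0.364 and 1.09 CPM in the 7 10x libraries and at 29.5 CPM in Drop-seq.

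Fam19a3 was near the detection limit on 10x. It had 10 UMIs in the 10x control, or 0.571 CPM (exact Poisson 95% interval 0.274 to 1.05), and 0.364 to 1.09 CPM over the 7 10x libraries. In the Drop-seq control it had 228 UMIs, or 29.5 CPM (25.8 to 33.6), found in 6.26% of nuclei. The levels of the 2 platforms do not overlap. Among Drop-seq nuclei without injury-state UMIs it was highest in C5, at 106.9 CPM (74.5 to 148.7, 35 UMIs in 157 nuclei), against 27.6 CPM in other large neurons and 3.80 CPM in C7-10. The other 4 members had 265 (Fam19a1), 172 (Fam19a2), 25.3 (Fam19a4) and 33.6 CPM (Fam19a5) in Drop-seq, against 834, 499.8, 62.0 and 28.8 CPM in the 10x control. Fam19a3 overlaps Gm43584 on the same strand and Ppm1j on the opposite one. Gm43584 was listed in the 7 10x tables (1.94 CPM in the control) and not in the Drop-seq table, and Ppm1j had 103.4 CPM in the 10x and 97.1 CPM in the Drop-seq control. The part of this overlap in the platform difference was not tested. Too few counts remained for Fam19a3 to enter any test, so the tests below cover 4 of the 5 members.

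Tests compared sums of counts over the nuclei of a class or state within each library, with edgeR's quasi-likelihood test, library as a block and Benjamini-Hochberg adjustment over all genes tested (the adjusted p below, with 0.05 as the threshold). Differences are log2 ratios ± an approximate standard error, the absolute log2 ratio divided by the square root of the test's F statistic. Since a sum is taken, fewer nuclei with the RNA and less RNA per nucleus cannot be told apart. Of 32 comparisons (4 members, each of 8 classes against the mean of the other 7), 10 were higher, 15 lower and 7 did not pass. The share of all 11230 genes called in these contrasts was 40.1% for C1/2, 31.7% for C3, 40.3% for C7-10, 16.9% for C11, 24.7% for C12, 46.6% for C13, 40.9% for C5 and 59.0% for other large neurons, so a call alone says little and the sizes matter more.

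Fam19a4 was concentrated in C3, the class of low-threshold C fibers. In C3 nuclei the 7 10x libraries had 588 CPM at the lowest, 658 at the median and 703.7 at the highest (mean 650.3 ± 43.0, SD, n = 7), and 51.1% to 81.9% of the nuclei held a UMI. In C13, the Mrgprd class, the levels were 63.5 to 131 CPM (mean 93.1 ± 24.4, n = 7), and the means of the other 6 classes were 13.6 to 36.3 CPM. The C3 values lay above those of every other class in each library. Against the mean of the other classes the difference was 4.64 ± 0.09 in C3 (24.9-fold, edgeR adjusted p = 1.33e-53) and 1.48 ± 0.12 in C13 (2.80-fold, adjusted p = 1.31e-17). In C7-10, the class with the lowest mean, 0.955% to 5.67% of nuclei held a Fam19a4 UMI at median depths of 1414 to 3296 UMIs, against 1474.5 to 3167.5 in C3. In the Drop-seq control the order was alike, with 266 CPM in C3 and 51.6 in C13. Of the 10 genes of low-threshold C fibers on a list (Th, Slc17a8, Gfra2 and others), 9 were tested in this contrast and all 9 were higher in C3, with a median of 2.60 against -0.01 over all genes tested.

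Among the scored neuron classes, Fam19a2 was highest in the large ones. Its levels in C5 were 617 to 1041 CPM (median 739.6, mean 822 ± 181, n = 7) and in other large neurons 429 to 862 CPM (median 757, mean 712 ± 157, n = 7). In C13 they were 46.6 to 112 CPM (mean 72.7 ± 26.0, n = 7), and the means of the other small classes were 143 to 217 CPM. Large and small groups did not overlap, since the highest value in any small class was 312 CPM (C11 at 2 days). Nuclei outside the neuron classes did overlap the large ones. Those that scored for no class had 377 to 652 CPM (n = 7). Levels were 265 to 654 CPM with satellite glia markers and 256 to 649 CPM with Schwann cell markers (n = 7 each). High Fam19a2 was therefore not limited to nuclei scored as large neurons. The difference was 2.18 ± 0.07 for C5 (4.54-fold, adjusted p = 1.96e-40), 1.85 ± 0.06 for other large neurons (3.60-fold, adjusted p = 8.40e-39) and -1.81 ± 0.10 for C13 (adjusted p = 8.98e-27), by edgeR. Over the 6 small classes together Fam19a2 was 5.11-fold lower than over the 2 large ones (-2.35 ± 0.06, edgeR adjusted p = 4.57e-49), in a contrast that called 58.4% of all genes. At least 1 UMI was found in 60.4% to 91.1% of C5 nuclei and 6.71% to 24.8% of C13 nuclei, at median depths of 1524.5 to 3943.5 and 1799.5 to 3654 UMIs.

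Fam19a5 was low in every class and graded. Other large neurons had 36.2 to 53.2 CPM (median 44.3, mean 44.9 ± 5.52, n = 7), while C13 had 3.77 to 14.1 CPM (mean 9.05 ± 3.85, n = 7) and C3 7.11 to 20.7 CPM (mean 13.8 ± 4.88, n = 7). The large neurons lay above C13 and C3 in all 7 libraries. C5, also a large class, had only 21.6 ± 7.78 CPM (n = 7) and did not differ from the mean of the other classes (-0.12 ± 0.16, edgeR adjusted p = 0.574). The differences were 1.11 ± 0.09 for other large neurons (2.16-fold, adjusted p = 4.63e-18), -1.33 ± 0.15 for C13 (adjusted p = 6.81e-12), -0.73 ± 0.17 for C3 (adjusted p = 0.000300) and 0.59 ± 0.12 for C1/2 (adjusted p = 5.06e-05), by edgeR. The means of C1/2, C7-10, C12, C11 and C5 were 30.2, 28.5, 26.4, 22.5 and 21.6 CPM, and neighbours in this order differed by less than their SDs of 6.20 to 9.39 CPM.

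By CPM, Fam19a1 was higher in the itch classes C11 and C12 and, by less, in other large neurons. The median share of nuclei with a UMI had another order, at 27.0% in C11, 30.2% in C12 and 38.0% in other large neurons. Thinned to 1104 UMIs, these shares were 22.8%, 20.8% and 24.7%. C12 had 216 to 1334 CPM (median 872, mean 855 ± 394, n = 7) and C11 422 to 979 CPM (median 769, mean 744 ± 206, n = 7). C13 had 93.7 to 196 CPM (mean 147 ± 39.7, n = 7) and C7-10 84.5 to 343 CPM (mean 213 ± 79.3, n = 7). C11 and C12 overlapped each other, and C12 fell as low as the range of C7-10 in 1 library, that of 7 days. The differences were 1.35 ± 0.14 for C12 (2.55-fold, adjusted p = 7.60e-13), 1.06 ± 0.16 for C11 (2.08-fold, adjusted p = 1.09e-07), 0.47 ± 0.13 for other large neurons (mean 506 ± 162 CPM, adjusted p = 0.00148), -1.45 ± 0.17 for C13 (adjusted p = 2.07e-11) and -1.01 ± 0.16 for C7-10 (adjusted p = 3.23e-07), by edgeR. C3 and C5 did not pass (edgeR adjusted p = 0.445 and 0.621). The highest Fam19a1 levels lay outside the 8 classes, in nuclei that scored for none (763 to 1820 CPM, median 1651, mean 1471 ± 401, n = 7), in those with Schwann cell markers (1434 ± 440.2, n = 7) and in those with satellite glia markers (1114 ± 261, n = 7). Their shares of nuclei with a UMI were 39.9% to 74.1%, 33.9% to 70.6% and 34.0% to 74.7%. Nuclei were enriched by NeuN, and the authors had removed clusters that were not neurons. Glial markers therefore do not show that a nucleus is from a glial cell.

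**Figure D2:**
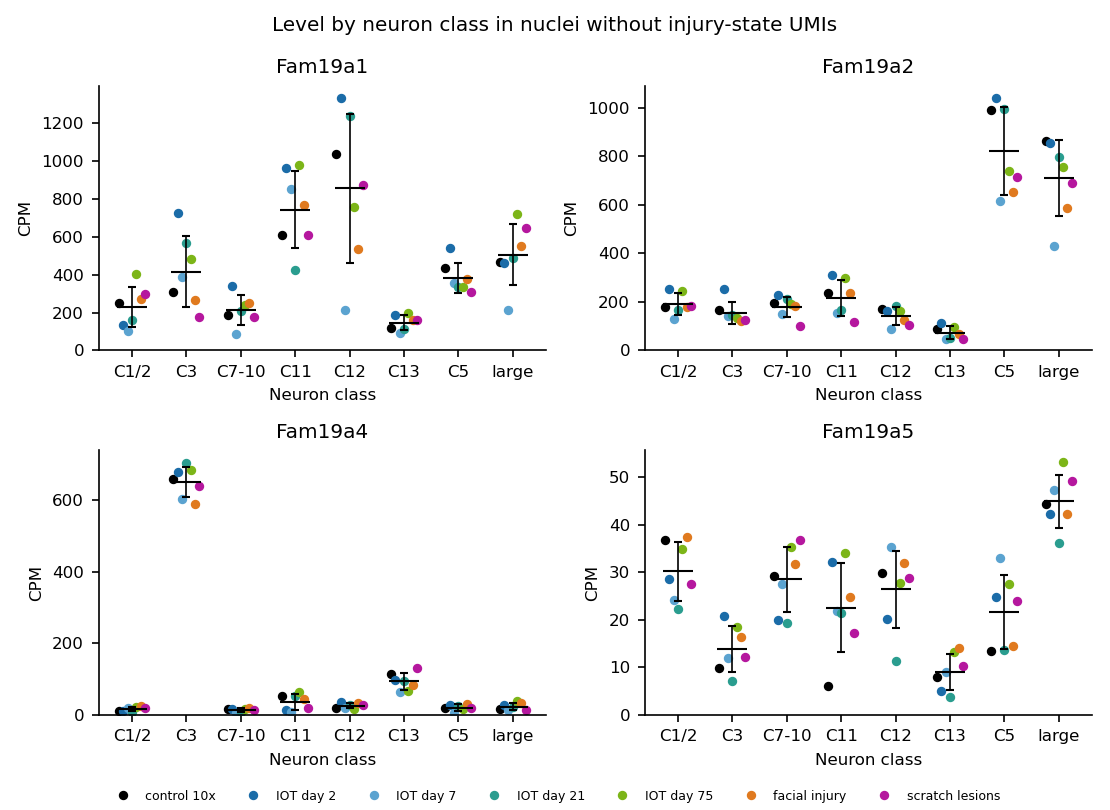
Level of 4 members by neuron class in nuclei without Atf3 or Sema6a UMIs. Points are the 7 10x libraries, and bars give mean and SD over them. Fam19a4 stands at 588 to 704 CPM in C3, and Fam19a2 at 429 CPM or more in both large classes and at 312 CPM or less in the small ones.

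Pairs of subtype genes, listed with earlier results of these data known, were then used to pick nuclei with a UMI of both genes, again without injury-state UMIs. Fam19a1 was highest by far in nuclei with Bmpr1b, a BMP receptor, and Cnih3, an auxiliary AMPA receptor subunit. These 250 nuclei had 5022 CPM in the 10x control, 5269, 3431, 5798 and 4495 CPM at 2, 7, 21 and 75 days after IOT, 3475 CPM after facial injury and 4901 CPM with scratch lesions. The mean was 4627 ± 893 CPM (n = 7), and all 7 libraries lay above every library of the other 6 pairs. Nuclei with Itga2 and Adamts16 followed at 2091 ± 395 CPM and those with Fras1 and Chrm2 at 1725 ± 548 CPM. Chrna7 with Htr3a gave 699 ± 248 CPM, Ano1 with Slc38a11 521 ± 195 CPM, Calb2 with Col5a2 357 ± 226 CPM and Runx3 with Neb 147 ± 155 CPM (n = 7 each). Fam19a2 had another order, with 1309 ± 229 CPM for Ano1 with Slc38a11, 875 ± 150 CPM for Runx3 with Neb, 706 ± 170 CPM for Itga2 with Adamts16 and 621 ± 83.6 CPM for Fras1 with Chrm2, but 161 ± 48.9, 138 ± 54.5 and 127 ± 109 CPM for the pairs of Chrna7, Bmpr1b and Calb2 (n = 7 each). The Bmpr1b pair, highest for Fam19a1, was thus among the lowest for Fam19a2. No test was made between pairs, since a nucleus needs depth to show both genes: their median depths in a library reached 12259.5 UMIs for Runx3 with Neb. Only 7 of the 250 Bmpr1b and Cnih3 nuclei were in the class of other large neurons, and 169 scored for no class.

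**Figure D3:**
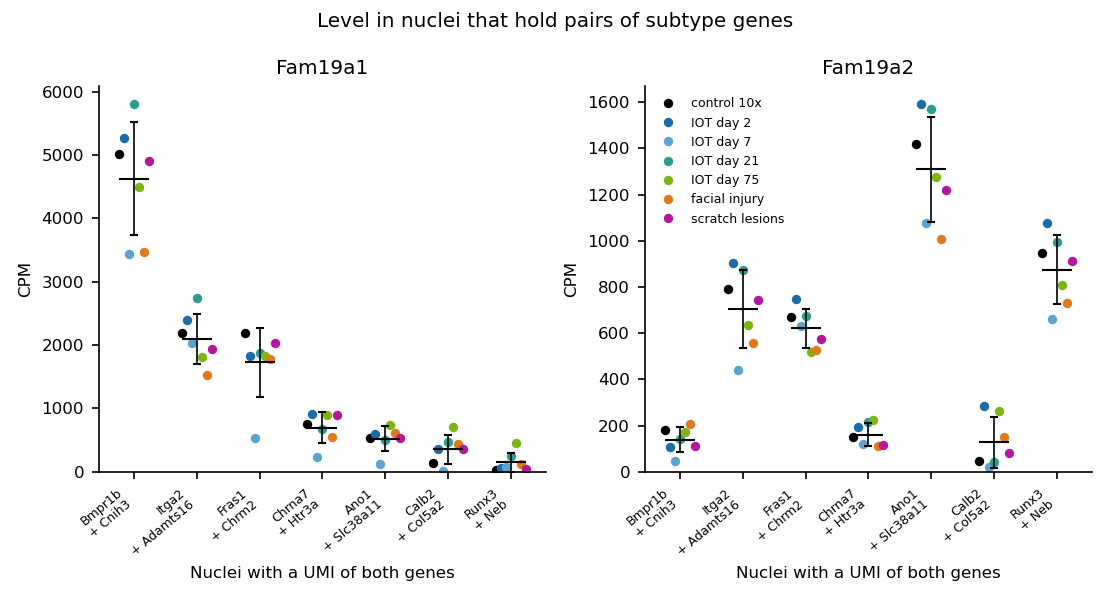
Levels of Fam19a1 and Fam19a2 in nuclei with a UMI of both genes of a pair. Points are the 7 10x libraries, bars give mean and SD. Fam19a1 reaches 3431 to 5798 CPM with Bmpr1b and Cnih3, where Fam19a2 is at 45.7 to 207 CPM.

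The genes whose levels over the 8 classes were most like those of a member were ranked among 9157 genes with at least 20 CPM in 1 class, markers left out, by Pearson's r of log2(CPM + 1) of the class means over 7 libraries. For Fam19a4 these were Lyst (0.98), Eif4ebp2 (0.96) and Tmeff2 (0.95), all highest in C3. For Fam19a2 they were Scamp2 (0.98), Atp6v0a1 (0.98) and Lmtk2 (0.97), and for Fam19a5 Camk1d, Tnks1bp1 and Antxr1 (0.97 each), all highest in a large class. For Fam19a1 they were Pip5k1a (0.89), Grm8 (0.88) and Sema5a (0.85). The 8 points of each r are classes of the same libraries, and a high r among so many genes is a description only.

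The injury state was counted in 614, 285, 234 and 150 nuclei at 2, 7, 21 and 75 days after IOT, 89 after facial injury and 176 with scratch lesions, against 33 in the 10x control. All 7 injury genes of a check list, among them Sox11, Sprr1a and Gap43, were higher in it after IOT (median log2 difference 2.80) and after skin injury (2.99). Injured nuclei were deeper, with medians of 2396 to 5751.5 UMIs by library against 1689 to 3925 in uninjured nuclei. The gate adds the UMIs of both genes and is not scaled to depth. At 75 days 48 nuclei of the large classes were in the injury state, while 23 nuclei of those classes held an Atf3 UMI. Part of the state there thus rested on Sema6a alone. Of the 33 nuclei in the 10x control, 23 were in the class of other large neurons. How many nuclei of the state were from injured neurons was not tested. Markers of other cells were present throughout. The summed level of 7 satellite glia genes was higher in injured nuclei in 6 of 6 libraries (454 to 1139 against 356 to 981 CPM), and that of up to 6 leukocyte genes in 6 of 6 (70.5 to 228 against 36.8 to 166 CPM), with none of the satellite genes and at most 2 of the leukocyte genes at 0 in a sum. Schwann, fibroblast and vascular genes were higher in 2, 4 and 3 of 6 libraries (432 to 1259, 67.7 to 197 and 16.2 to 83.2 CPM in injured nuclei against 487 to 1326, 83.3 to 199.998 and 39.2 to 60.1 CPM). The summed level of 5 pan-neuronal genes was lower in injured nuclei in all 6, for example 1319 against 2026 CPM at 2 days. The part of such RNA in the differences below was not tested.

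After IOT, Fam19a1 and Fam19a4 fell in injured nuclei, Fam19a5 rose and Fam19a2 did not pass. This contrast called 19.9% of 14163 genes. Fam19a4 went from 64.8 to 19.5 CPM at 2 days, from 53.5 to 17.7 at 7 days, from 53.0 to 16.7 at 21 days and from 76.9 to 26.4 at 75 days. Injured and uninjured nuclei did not overlap, and the difference was -1.58 ± 0.14 (2.99-fold lower, edgeR adjusted p = 6.84e-07). This fall passed under each alternative that was run, with log2 differences from -2.02 to -1.18. Fam19a1 went from 1117 to 393 CPM at 2 days, from 446 to 181 at 7 days, from 1054 to 345 at 21 days and from 1027 to 586 at 75 days. It was lower in injured nuclei of every library, although the injured level at 75 days exceeded the uninjured level at 7 days. The difference was -1.24 ± 0.12 (2.36-fold lower, edgeR adjusted p = 8.34e-07), and without the library block the adjusted p was 0.0728.

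Fam19a5 went from 30.0 to 31.2 CPM at 2 days, from 30.2 to 50.8 at 7 days, from 23.9 to 39.9 at 21 days and from 32.4 to 51.1 at 75 days. Injured nuclei were higher in 4 of 4 libraries, but at 2 days by little, and the groups overlapped between libraries. The rise of 0.58 ± 0.16 (1.49-fold, edgeR adjusted p = 0.0177) rested on single libraries: the adjusted p was 0.0818 without 7 days, 0.0799 without 21 days, 0.366 in thinned nuclei and 0.0995 when 1 UMI of either gene set the state. Fam19a2 had 567 and 526 CPM at 2 days, 296 and 317 at 7 days, 536 and 679.8 at 21 days and 422 and 556 at 75 days in uninjured and injured nuclei. The groups overlapped, and the difference was 0.25 ± 0.10 (edgeR adjusted p = 0.0900), although it passed without the library of 2 days (0.35, adjusted p = 0.0457). In C3, the class with the highest Fam19a4 level, 21 of 1901 C3 nuclei of the 6 injury libraries were in the injury state (1.10%), against 68 of 1739 in C5 (3.91%) and 881 of 12844 nuclei without a class (6.86%). In those nuclei without a class the injured and uninjured levels of Fam19a4 were 13.8 and 36.2 CPM at 2 days, 21.8 and 30.2 at 7 days, 9.24 and 27.6 at 21 days and 13.5 and 38.1 at 75 days.

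In the skin injuries only Fam19a1 passed. It went from 728 to 481 CPM after facial injury and from 847 to 478 with scratch lesions, without overlap (-0.74 ± 0.17, 1.67-fold lower, edgeR adjusted p = 0.0141, in a contrast that called 4.66% of all genes). Without facial injury the adjusted p was 0.145, without scratch lesions 0.415, without the library block 0.924 and in thinned nuclei 0.390 (-0.74, where the median of all genes was -0.65). Fam19a4 had 67.3 and 62.1 CPM in uninjured and injured nuclei after facial injury and 70.5 and 99.6 CPM with scratch lesions, lower in 1 library and higher in the other (0.26 ± 0.19, edgeR adjusted p = 0.558). Fam19a5 had 31.1 and 75.6 CPM, and 33.8 and 38.5 CPM (0.68 ± 0.27, adjusted p = 0.205), and Fam19a2 had 352 and 381 CPM, and 366 and 307 CPM (-0.10 ± 0.15, adjusted p = 0.808), by edgeR. The state effect differed between IOT and skin injury for Fam19a4 (-1.84 ± 0.24, edgeR adjusted p = 0.00379), one of 8 genes (0.0565%) called in that contrast. Without the library of scratch lesions the difference was -1.40 with an adjusted p of 0.975, in thinned nuclei it was -3.06 (0.0838, median of all genes 0.45), and with 1 UMI of either gene it was -0.85 (0.414). Those scratching mice also differ in strain and transgenes, which cannot be told apart from the injury, and 11 of the 21 injured C3 nuclei came from them (7 from 2 days, 1 each from 7 days, 21 days and facial injury). Time after injury cannot be told apart from the type of injury either. Facial injury was read at 2 days, chronic scratch lesions have no set day, and IOT spans 2 to 75 days. In injured nuclei without a class Fam19a4 was at 87.7 CPM (12 UMIs) after facial injury and 112 CPM (36 UMIs) with scratch lesions, above all 4 IOT libraries (9.24 to 21.8 CPM). For Fam19a1, Fam19a2 and Fam19a5 the difference between the injuries was -0.50 ± 0.20, 0.35 ± 0.18 and -0.10 ± 0.31 (edgeR adjusted p = 0.660, 0.794 and 0.994).

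Across the days after IOT no change in the state effect was detected for any member. The slope per doubling of days was 0.07 ± 0.05 for Fam19a1, 0.07 ± 0.04 for Fam19a2, -0.0006 ± 0.07 for Fam19a4 and 0.08 ± 0.07 for Fam19a5 (edgeR adjusted p of at least 0.744). This fit has 2 residual degrees of freedom and called 0 of 14374 genes (0%), while 1252 had an unadjusted p under 0.05 by edgeR, and DESeq2 called 0 with 352 under that p. Without the library of 2 days it called 652 genes, so the count of 0 says little about stability.

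**Figure D4:**
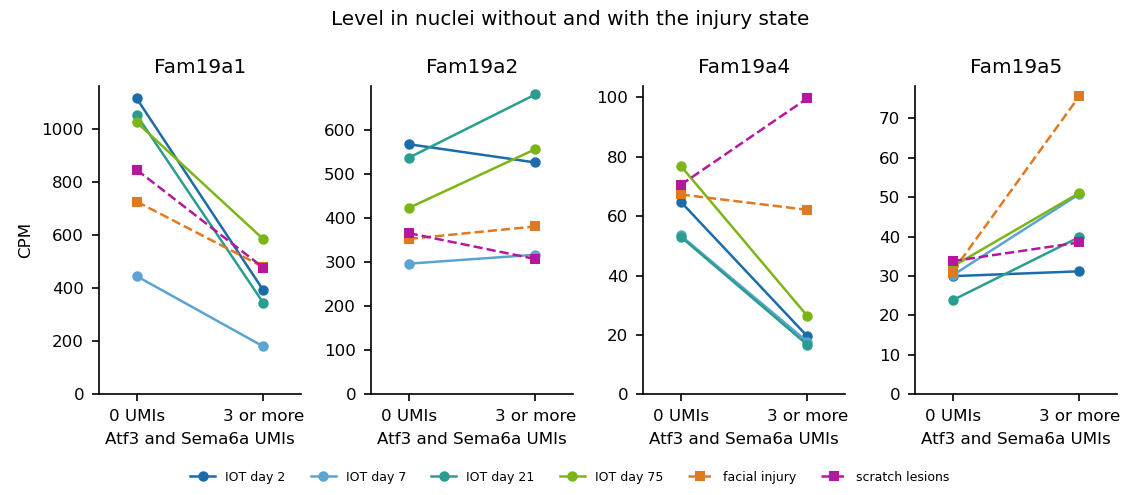
Level of 4 members in nuclei with 0 and with 3 or more UMIs of Atf3 and Sema6a, joined for each of the 6 injury libraries (solid lines IOT, dashed lines skin injuries). Fam19a4 lies at 26.4 CPM or less in injured nuclei of the 4 IOT libraries and at 62.1 and 99.6 CPM in those of the skin injuries.

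Injured nuclei were split by whether a score of 6 genes of the study's I1 group (large neuron genes such as Map2 and Piezo2) or of 4 genes of its I2 group (Gal and others) was higher. The groups also differed in the injury genes of the check list. Of these 7 genes, 6 were lower in I1 and 1 did not pass (median -0.88 against -0.002 over all genes tested). The part of this in the member differences was not tested. Fam19a2 was higher in I1. It had 632 and 254 CPM in I1 and I2 at 2 days, 357 and 197 at 7 days, 733 and 473 at 21 days, 568 and 484 at 75 days, 489 and 173 after facial injury and 505 and 121 with scratch lesions. The I1 level was the higher one in 6 of 6 libraries (1.09 ± 0.18, 2.13-fold, edgeR adjusted p = 0.000267, in a contrast that called 15.4% of 6555 genes), and without the library block the adjusted p was 0.141. Fam19a4 was lower in I1 (-1.47 ± 0.40, edgeR adjusted p = 0.0140). Its levels in I1 and I2 were 10.1 and 43.6 CPM at 2 days, 23.7 and 0 at 7 days, 11.6 and 36.4 at 21 days, 29.0 and 11.5 at 75 days, 16.4 and 149.6 after facial injury and 32.9 and 162 with scratch lesions. This order held in 4 of 6 libraries, with no UMI in the 82 I2 nuclei at 7 days. The call was lost by DESeq2 (adjusted p = 0.554) and without facial injury (0.0545), and without 2 days the gene had too few counts to be tested. Fam19a1 (0.30 ± 0.16) and Fam19a5 (-0.17 ± 0.19) did not pass (edgeR adjusted p = 0.224 and 0.628).

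Within size classes the state effect of Fam19a2 had opposite signs. In large neurons (C5 and others together) its level went from 897 to 568 CPM at 2 days, from 464 to 232 at 7 days, from 839.7 to 504 at 21 days, from 753 to 472 at 75 days, from 605 to 481 after facial injury and from 696 to 507 with scratch lesions. In small neurons it went from 210.2 to 414 CPM, from 111 to 227, from 149.8 to 349, from 166 to 593, from 145 to 252 and from 104 to 173 in the same order. It thus fell in 6 of 6 libraries in large neurons and was higher in 6 of 6 in small ones. The difference was -0.65 ± 0.11 in large neurons (1.57-fold lower, edgeR adjusted p = 2.57e-05, 3.77% of 11117 genes called) and 1.09 ± 0.15 in small ones (2.13-fold higher, adjusted p = 6.99e-09, 11% called). The difference of both effects was -1.74 ± 0.18 (adjusted p = 4.88e-11), in a contrast that called 2.41% of genes, and it did not pass without the library block (0.197) or in thinned nuclei (0.494). Without the block the fall in large neurons did not pass either (0.698), while the rise in small ones did (0.0168). The numbers behind this are small, with 22 to 81 injured large and 13 to 90 injured small nuclei by library, and injured nuclei that still score for a class are those that kept its markers. When the uninjured level was weighted by the share of UMIs that each class holds among the injured nuclei, the mean log2 ratio of the 6 libraries was 0.94 ± 0.34 in small neurons (SD, 6 of 6 higher) and -0.64 ± 0.25 in large ones (0 of 6 higher), against 1.10 ± 0.40 and -0.64 ± 0.23 unweighted. In nuclei thinned to 1104 UMIs before scoring, with 1 to 32 injured small nuclei by library, the small effect was -0.18 (edgeR adjusted p = 0.834), but the median of all genes moved to -0.84 in that fit (from -0.07), and relative to it Fam19a2 was at 0.66.

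Fam19a1 fell in injured large neurons, from 479 to 146 CPM at 2 days, from 239.9 to 38.6 at 7 days, from 457 to 117 at 21 days, from 627 to 536 at 75 days, from 508 to 226 after facial injury and from 566 to 424 with scratch lesions. All 6 libraries went down (-1.10 ± 0.16, 2.15-fold lower, edgeR adjusted p = 2.52e-07, or 0.719 without the library block). In small neurons it did not pass (-0.22 ± 0.18, adjusted p = 0.526), and 4 of 6 libraries were lower. The effects differed by -0.88 ± 0.24 (edgeR adjusted p = 0.0282), a call that was lost without 2 days (0.0670), 21 days (0.147) or facial injury (0.316) and by DESeq2 (0.127). Fam19a4 fell in small neurons (-0.81 ± 0.23, adjusted p = 0.00964), but not without the library of 2 days (0.106) or by DESeq2 (0.0690), and in large ones it did not pass (-0.80 ± 0.35, adjusted p = 0.252). Its levels in uninjured and injured small nuclei were 136 and 58.5 CPM at 2 days, 109 and 0 at 7 days, 117 and 59.8 at 21 days, 151 and 45.6 at 75 days, 129.6 and 45.8 after facial injury and 136 and 191 with scratch lesions. Scratch lesions alone went up against this level, but against the uninjured level weighted by class, 44.4 CPM at 21 days, 35.4 at 75 days and 186 with scratch lesions, injured nuclei were higher in 3 of 6 libraries. In the injured C3 nuclei of 2 days (7 nuclei) and of scratch lesions (11 nuclei) Fam19a4 was at 425 CPM (248 to 680, 17 UMIs) and 390.3 CPM (223 to 634, 16 UMIs), against 679 and 638 CPM in uninjured C3 nuclei of those libraries. Fam19a5 passed in neither size class (0.31 ± 0.22 in large and 0.82 ± 0.32 in small, edgeR adjusted p = 0.620 and 0.0955).

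**Figure D5:**
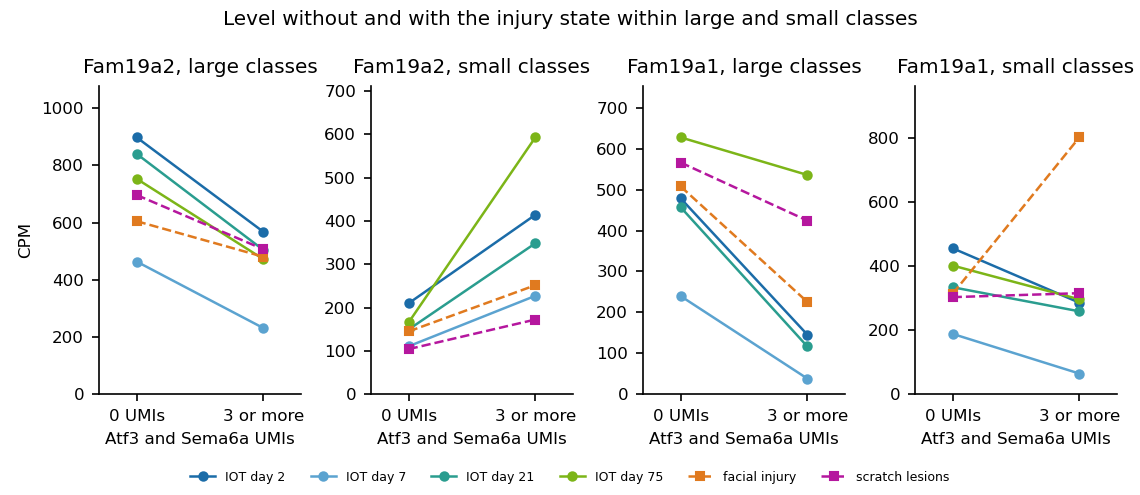
Levels of Fam19a2 and Fam19a1 in nuclei without and with the injury state within large (C5 and other large neurons) and small classes, joined for each of the 6 injury libraries. Fam19a2 goes down in large and up in small classes in all 6, and Fam19a1 goes down in large classes in all 6.

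Lists of related genes were counted in the same contrasts, which called 19.9% of all genes after IOT and 4.66% after skin injury. Of 8 reported partners and receptors (neurexins, Fpr1, Gpr1, S1pr2, Lrrc4b and Lrp1), 6 were tested and 0 passed after IOT or after skin injury, with medians of 0.02 and -0.29 against -0.01 and -0.06 over all genes. Within injured large neurons 1 of 4 tested, Nrxn3, fell (-0.45 ± 0.11, edgeR adjusted p = 0.00654), in a contrast that called 3.77% of genes. Of 18 genes for other extracellular ligands of neurexins, 15 were tested, and after IOT 5 rose, 1 fell and 9 did not pass (median 0.17). Cbln2, a cerebellin that bridges neurexins to glutamate receptors, rose most (2.18 ± 0.32, 4.52-fold, adjusted p = 9.80e-05), followed by Nxph1, a neurexophilin (1.18 ± 0.23, adjusted p = 0.00106), Clstn2 and Clstn3, calsyntenins (0.72 ± 0.11 and 0.44 ± 0.13, adjusted p = 0.000134 and 0.0201), and Nlgn1, a neuroligin (0.41 ± 0.09, adjusted p = 0.00332), while Nlgn3 fell (-0.75 ± 0.22, adjusted p = 0.0237), all by edgeR. After skin injury Nxph1 (1.91 ± 0.48) and Lrrtm3 (0.87 ± 0.20) rose (edgeR adjusted p = 0.0288 and 0.0148). Of the 10 genes of low-threshold C fibers, 8 fell after IOT and 2, Th and Slc17a8, did not pass, with a median of -0.93. After skin injury 1 of them, Kcnip4, fell (-0.87 ± 0.17, edgeR adjusted p = 0.00650). For comparison with Fam19a4 after IOT, Runx1, a transcription factor of unmyelinated afferents, had -1.18 ± 0.13 (adjusted p = 6.35e-06) and P2ry1, a purine receptor, -1.23 ± 0.33 (adjusted p = 0.0131), by edgeR.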

How the data were processed

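The authors prepared nuclei from trigeminal ganglia kept in RNAlater and sequenced them on 10x (v2 chemistry) or Drop-seq. The deposited tables hold raw counts of UMIs per gene and nucleus, aligned to mm10 with introns included. Tools listed in the submitters' processing notes are Seurat (version 2), STAR (2.5.3a), Cell Ranger (2.1.0) and bcl2fastq (2.17). The authors had removed clusters that were not neurons before deposit.

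Here the counts were used as deposited, with 7735811 to 22003842 UMIs per table. A CPM value is a gene's UMIs per 1000000 UMIs of the nuclei summed, and its interval covers counting error only. A nucleus entered the class whose markers had the highest score, the mean z within the library of the natural log of 1 plus UMIs per 10000, when it was at least 0.5 and led by 0.25. These limits were set after marker data had been seen, and no doublet caller was run. Nuclei that passed for 2 or more classes (26.8% to 30.1%) were left out as an alternative. Sums per library were tested with edgeR 4.0.16 in R 4.3.3 (DESeq2 1.42.0 as an alternative), leaving out genes used for gates or scores, and the scripts were tested on simulated data. Python 3.11.15 was used for the rest. No label says that libraries of 1 condition are separate cultures or animals, and each is a pool. The p-values measure only the spread left between sums after the library block, not that between animals. The state fit had 12 sums and 4 residual degrees of freedom, and I1 against I2 had 12 and 5. The class fit had 56 and 42, from 7 libraries, and the fit by size class 24 and 10. Libraries of different days after IOT, or of 2 unlike skin injuries, stood as replicates of a state effect. The Drop-seq table took part in no test. The 5 genes, the gene lists and the rule for named genes (all 5 members, listed genes that passed in a main contrast, and the 3 genes most like each member) were chosen with earlier results of these data known. Alternatives changed the scaling, the low-count filter, the tool, the block, the injury gate, the class gate and the depth, or left out 1 library.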

Additional observations from a re-analysis of the deposited data

Results flagged for a closer look

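The state effect of Fam19a4 differed between IOT and skin injury by -1.84 on the log2 scale (edgeR adjusted p = 0.00379 for the difference itself), with 4 of 4 IOT libraries lower in injured nuclei and 1 of 2 skin libraries. The state effects of large and small neurons differed by -1.74 for Fam19a2 (edgeR adjusted p = 4.88e-11) and by -0.88 for Fam19a1 (edgeR adjusted p = 0.0282). In thinned nuclei neither difference passed (edgeR adjusted p = 0.494 for Fam19a2 and 0.896 for Fam19a1). Fam19a3 was found at 29.5 CPM in the Drop-seq control, which entered no test, against 0.571 CPM in the 10x control.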

How the results depend on the processing

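Of 42 differences called for a member, 23 kept their direction and call under every alternative that was run, 19 lost the call under at least 1, and 1 changed sign, that of Fam19a2 in injured small neurons after thinning, where the median of all genes lay at -0.84 and Fam19a2 at 0.66 above it. Thinning moved that median to -1.51 in large neurons, -0.68 for large minus small, -0.65 for skin injury, 0.45 for IOT against skin, -0.18 for IOT and -0.11 by day, so thinned values of these contrasts are read against it. The cause of these changes was not tested. With at least 1 UMI of Atf3 as the gate, the genes called numbered 27 (IOT against skin), 56 (day), 1861 (I1 against I2), 670 (state in large), 740 (state in small) and 46 (large minus small), and the log2 difference changed sign to 0.030 (Fam19a4, day) and 0.11 (Fam19a5, I1 against I2). With at least 1 UMI of each gate gene, the genes called numbered 46 (IOT against skin), 22 (day), 694 (state in large) and 112 (large minus small), and the log2 difference changed sign to 0.025 (Fam19a5, I1 against I2). With at least 1 UMI of either gate gene, the genes called numbered 226 (skin), 0 (IOT against skin), 4192 (I1 against I2) and 573 (large minus small), and the log2 difference changed sign to -0.43 (Fam19a4, skin), 0.011 (Fam19a5, IOT against skin), 0.063 (Fam19a4, day), -0.12 (Fam19a1, I1 against I2), 0.14 (Fam19a5, I1 against I2), -0.022 (Fam19a5, state in large) and 0.20 (Fam19a1, state in small). Without nuclei that passed for 2 or more classes, the genes called numbered 19 (day), 893 (C11), 1713 (C12) and 170 (large minus small), and the log2 difference changed sign to 0.041 (Fam19a4, day), 0.19 (Fam19a2, C11) and -0.023 (Fam19a1, C5). By DESeq2, the genes called numbered 645 (I1 against I2), 248 (state in large) and 158 (large minus small), and the log2 difference changed sign to 0.0050 (Fam19a4, day). With library sizes only, the log2 difference changed sign to 0.032 (Fam19a4, day). With no library block, the genes called numbered 513 (IOT), 6 (skin), 0 (IOT against skin), 114 (I1 against I2), 2306 (C1/2), 1745 (C3), 2073 (C7-10), 957 (C11), 1353 (C12), 3073 (C13), 2530 (C5), 3835 (large), 4364 (small against large), 49 (state in large), 334 (state in small) and 1 (large minus small). With no low-count filter, the genes called numbered 46 (IOT against skin) and 106 (day). With a stricter class score, the genes called numbered 179 (state in large), and the log2 difference changed sign to -0.15 (Fam19a1, C3), 0.030 (Fam19a4, C11) and -0.028 (Fam19a1, C5). In nuclei thinned to 1104 UMIs, the genes called numbered 1061 (IOT), 164 (skin), 4 (day), 54 (I1 against I2), 2417 (C1/2), 1871 (C3), 2737 (C7-10), 956 (C11), 1230 (C12), 3005 (C13), 2591 (C5), 3831 (large), 4040 (small against large), 1395 (state in large), 693 (state in small) and 3 (large minus small), and the log2 difference changed sign to 0.078 (Fam19a5, IOT against skin), -0.18 (Fam19a1, day), -0.18 (Fam19a5, day), 0.16 (Fam19a5, C11), -0.18 (Fam19a2, state in small) and -4.24 (Fam19a4, large minus small). With 1 library left out in turn, genes called ran over 1837 to 3352 (IOT), 22 to 993 (skin), 0 to 71 (IOT against skin), 3 to 652 (day), 581 to 1034 (I1 against I2), 772 to 1211 (state in small) and 138 to 302 (large minus small), and log2 differences that changed sign over -0.25 to 0.051 (Fam19a2, skin), -0.18 to 0.50 (Fam19a4, skin), -0.64 to 0.40 (Fam19a5, IOT against skin), -0.047 to 0.14 (Fam19a1, day), -0.023 to 0.024 (Fam19a4, day), -0.075 to 0.20 (Fam19a5, day), -0.25 to 0.0071 (Fam19a5, C11), -0.19 to 0.056 (Fam19a5, C5) and -0.43 to 0.72 (Fam19a4, large minus small). After thinning, median shares of nuclei over the 10x libraries were 29.0% (Fam19a2), 0.0651% (Fam19a3), 5.86% (Fam19a4) and 3.05% (Fam19a5). As a mean over nuclei, the median level was 73.1 CPM for Fam19a4 and 27.6 CPM for Fam19a5. The level weighted by class was an alternative chosen after seeing the data. No pairing between conditions was possible because each injury condition holds 1 library, so conditions share fewer than 2 replicate numbers. Within a library, injured and uninjured (or class) sums were paired by the library block, without which 15 member calls were lost. Few UMIs remained for Fam19a3 on 10x and for injured nuclei of a class after thinning.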
